A study of Penicillium oxalicum with 114 samples.

Results

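The 111 genes described here had lower transcript levels in mycelium of the filamentous fungus Penicillium oxalicum without the gene POX07277 than in its control strain, on each of 3 added lipids. They were selected on the lipid libraries themselves. A gene entered when the ratio of the mean in the mutant to the mean in the control, with 1 CPM (a count divided by its library total and scaled to a common total) added to each, was at most 0.4 on all 3 lipids and the control mean was at least 10 CPM on all 3. This gave 111 of the 9863 gene IDs in the files, or of 6618 IDs that met the control minimum, with POX07277 itself left out. RNA-seq of mycelium gave 114 libraries in 33 groups.

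The lipid groups were dPOX07277, a strain with POX07277 deleted, and Ku70, the control strain, which lacks KU70. Both were moved from glucose to 2% Avicel for 24 h with an added lipid, namely oleic acid, linolenic acid or arachidonic acid oil (3 libraries per strain and lipid). The labels give no lipid dose, no lipid-free libraries of dPOX07277 were analysed here, and the labels name 1 strain per deletion without saying whether it also lacks KU70. Groups without lipid were dClrB, with the gene POXClrB deleted, dPOX01167, dPOX02968 and dPOX04420, each with that gene deleted, OES1167, which overexpresses POX01167 from its own promoter, and the wild type HP7-1. Transferred hyphae of dClrB, dPOX01167 and Ku70 grew on wheat bran plus Avicel (WA) for 12, 24 or 36 h, and those of dClrB and Ku70 on Avicel (AV) for 12 or 36 h (3 libraries each). Transferred hyphae of dClrB, OES1167, dPOX02968 and dPOX04420 (3 libraries each) and of Ku70 (24) grew for 24 h on an inducing carbon source, 2% Avicel in the growth notes. The untransferred cultures, 72 h from spores, were dPOX01167 and dClrB on 2% Avicel (3 each) and HP7-1 on wheat bran, wheat bran plus rice straw or wheat bran plus bagasse (1 each) and on 2% glucose (3).

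Avicel is a microcrystalline cellulose, which fungi of this kind degrade with secreted cellulases. ClrB is a transcription factor that fungi such as this need for the expression of cellulase genes. Oleic and linolenic acid are fatty acids of the same chain length that differ in their number of double bonds, and arachidonic acid is longer and more unsaturated. Filamentous fungi take up fatty acids and break them down by beta-oxidation, which in Aspergillus nidulans is under the zinc cluster proteins FarA and FarB. KU70 serves DNA repair by end joining, and strains without it are used because genes are more easily deleted in them. None of the gene IDs could be paired with a name or product, so the 111 genes are given by ID. Of 13 IDs that earlier work on this fungus gives as cellulase (9) and xylanase (4) genes, and that the files do not annotate, 0 were among them.

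Library totals were 13277742 to 14627510 expected counts on lipids, 5368155 to 8267079 in the time course on WA and AV, and 365937 to 14731797 elsewhere. POX07277 stood at 0 CPM in all 9 dPOX07277 libraries, against 19.4 to 32.9 CPM in the 9 Ku70 libraries on lipids. The dPOX07277 libraries F and S on oleic acid stood apart from each other. They differed over 2-fold at 45.8% of genes averaging 20 CPM or more, against 1.47% to 4.21% in the other 5 lipid groups, and library T lay between them at 93.2% of those genes. Without library F the same rule gave 112 genes, of which 107 were among the 111, and without S it gave 105, all among them. Libraries labelled dPOX01167 on AV held POX01167 transcript and are not compared here, nor are those of dClrB on AV at 24 h. The labels do not say that replicates are separate cultures, so p-values measure the spread between these libraries, which may be technical.

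On the lipids, the 111 genes together took 4742 ± 109 CPM in dPOX07277 and 49144 ± 12986 CPM in Ku70 on arachidonic acid oil, 5194 ± 685 and 45647 ± 4002 CPM on linolenic acid, and 5184 ± 546 and 52222 ± 6402 CPM on oleic acid (SD, n = 3 each). Since these values chose the genes, they are a description and were not tested. A few genes held much of the sums. In Ku70 on arachidonic acid oil POX09358 averaged 12160 CPM, POX08030 5730 CPM, POX05360 4245 CPM and POX09365 4037 CPM. In RNA from whole mycelium, fewer hyphae with a transcript and less transcript per hypha cannot be told apart. The median ratio was 0.220 on arachidonic acid oil, 0.238 on linolenic acid and 0.169 on oleic acid, beside 0.969, 0.960 and 0.900 over all genes that met the control minimum. A ratio of at most 0.4 was reached on arachidonic acid oil by 3.76% of the 6618 genes, on linolenic acid by 3.76% and on oleic acid by 7.57%.

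POX08890 had the strongest decrease, by its highest ratio over the 3 lipids. On arachidonic acid oil it stood at 1.2, 0.976 and 0.753 CPM in dPOX07277, against 237, 264 and 140 CPM in Ku70. On linolenic acid its levels were 1.69, 1.31 and 1.54 CPM in dPOX07277, against 579, 649 and 415 CPM in Ku70. On oleic acid they were 2.83, 1.40 and 5.37 CPM in dPOX07277, against 405, 388 and 433 CPM in Ku70. Every mutant library thus lay below every Ku70 library, by 109-fold, 218-fold and 97.5-fold in the ratio of means with 1 CPM added.

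POX05360 stood at 91.2, 96.0 and 74.9 CPM in dPOX07277 on arachidonic acid oil, against 4714, 4599 and 3423 CPM in Ku70. On oleic acid it reached 28.5, 82.4 and 60.2 CPM in dPOX07277, against 6310, 5411 and 6020 CPM in Ku70. The groups did not overlap, and the mutant mean was 48.1-fold lower on arachidonic acid oil, 72.2-fold lower on linolenic acid and 102-fold lower on oleic acid. POX08030 stood at 141, 167 and 117 CPM in dPOX07277 on arachidonic acid oil, against 5562, 6534 and 5093 CPM in Ku70. Its mutant mean was 40.1-fold lower on arachidonic acid oil, 44.1-fold on linolenic acid and 65.1-fold on oleic acid, again with no overlap.

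Of the other genes with the strongest decrease, POX00669, POX03782, POX03931, POX08268, POX08706, POX06683 and POX00634 were between 10.9-fold and 31.9-fold lower on every lipid. POX03782 stood at 57.9, 62.2 and 51.4 CPM in dPOX07277 on arachidonic acid oil, against 1139, 1076 and 618 CPM in Ku70. On oleic acid POX03782 reached 72.0, 214 and 114 CPM in dPOX07277, against 4497, 4354 and 4002 CPM in Ku70. Its Ku70 level thus differed between the oils more than its mutant level did.

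Some genes stood at different levels on the 3 lipids in the control strain. POX03935 stood at 0.373 to 1.97 CPM in all 9 dPOX07277 libraries. In Ku70 it reached 31.5, 6.27 and 9.21 CPM on arachidonic acid oil, 321, 279 and 404 CPM on linolenic acid, and 62.7, 82.9 and 123 CPM on oleic acid. The Ku70 libraries on linolenic acid thus held the highest levels, and the mutant means were 11.5-fold lower on arachidonic acid oil, 124-fold on linolenic acid and 36.7-fold on oleic acid.

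POX09357 and its numerical neighbours POX09358 and POX09365 varied widely between Ku70 libraries of 1 group. POX09357 stood at 6.60 to 11.3 CPM over the 9 dPOX07277 libraries. In Ku70 it reached 118, 382 and 848 CPM on arachidonic acid oil, 139, 141 and 34.9 CPM on linolenic acid, and 106, 2979 and 78.8 CPM on oleic acid. A single Ku70 library thus carried most of its mean on oleic acid. POX09358 on arachidonic acid oil stood at 32.9, 44.3 and 41.3 CPM in dPOX07277, against 197, 14855 and 21429 CPM in Ku70. On oleic acid POX09358 reached 757, 69.0 and 103 CPM in dPOX07277, against 4086, 8816 and 272 CPM in Ku70, so the groups overlapped.

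**Figure D1:**
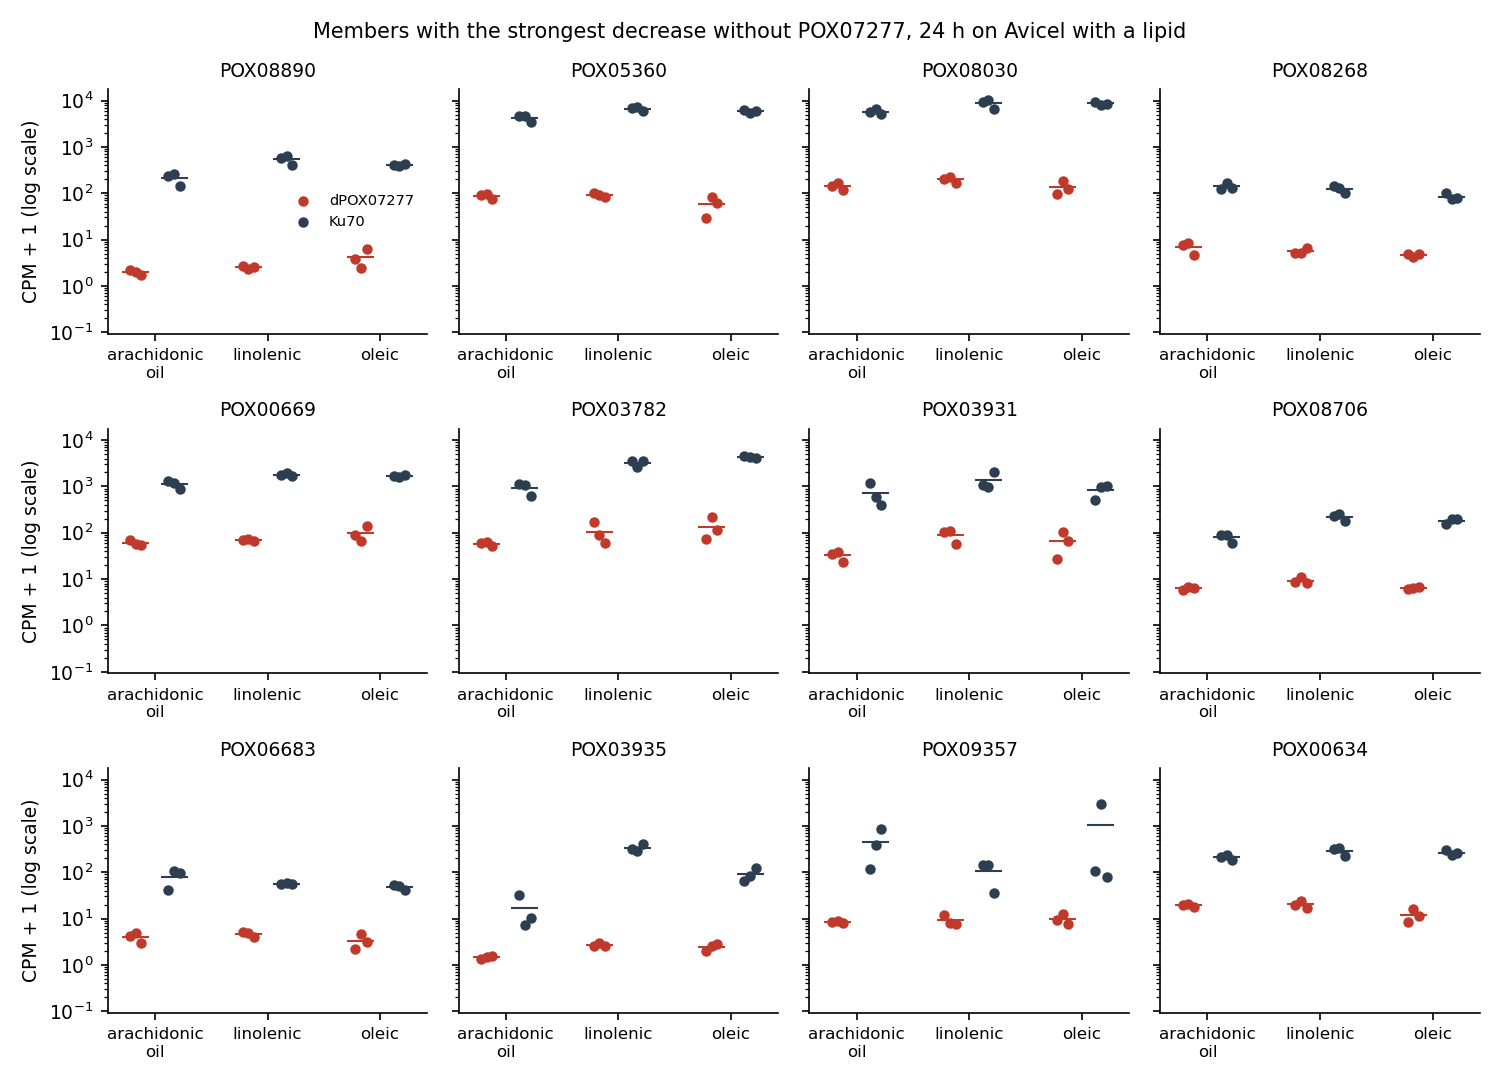
Levels of the 12 genes with the strongest decrease on all 3 lipids, as CPM + 1 on a log axis, with 1 point per library (3 per strain and lipid), dPOX07277 left of Ku70 and the mean as a line. The points of dPOX07277 lie below those of Ku70 in every panel, with POX09357 and POX03935 the most spread in Ku70.

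All 3 mutant libraries lay below all 3 Ku70 libraries for 110 of the 111 genes on arachidonic acid oil, where this held for 29.1% of the 6618 genes. It held for 109 on linolenic acid, beside 32.1%, and for 107 on oleic acid, beside 32.1%. The exceptions were POX06312 on arachidonic acid oil, POX09358 and POX09365 on linolenic acid, and POX09358, POX09359, POX09360 and POX09365 on oleic acid. The ratio was lowest on oleic acid for 61 genes, on linolenic acid for 27 and on arachidonic acid oil for 23. The highest ratio fell on arachidonic acid oil for 58 genes, on linolenic acid for 37 and on oleic acid for 16. Differences between the lipids were not tested, because these libraries chose the genes.

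The genes nearest the threshold had their highest ratio at 0.399 (POX04869), 0.4 (POX02405) and 0.4 (POX06715) just inside it. Just outside it were POX00873 at 0.405, POX04322 at 0.412 and POX09361 at 0.413. POX02405 had means of 232.8, 156.2 and 151.5 CPM in dPOX07277 on arachidonic acid oil, linolenic acid and oleic acid, against 584.0, 440.3 and 474.6 CPM in Ku70. POX00873 had 41.2, 32.6 and 24.7 CPM in dPOX07277 in the same order, against 103.3, 289.5 and 115.5 CPM in Ku70. The edge of the list therefore runs through genes with like values.

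Set beside Ku70 without lipid, most of the 111 genes were higher in Ku70 on a lipid and lower in the mutant on a lipid. The median ratio of the Ku70 mean on a lipid to the mean of the 24 Ku70 libraries on the inducing carbon source was 1.46 on arachidonic acid oil, 1.80 on linolenic acid and 1.61 on oleic acid. Over the genes that met the control minimum it was 0.945, 0.949 and 0.912. Ku70 was above its level without lipid for 101 genes on arachidonic acid oil, 94 on linolenic acid and 94 on oleic acid. The mutant mean on all 3 lipids was below the median of the 24 Ku70 libraries for 108 of the 111 genes, and below every one of the 24 for 31, as it was for 1.45% of the 6618 genes. It was below all 12 deep ones of these libraries for 59, as it was for 4.77% of the 6618 genes. The 24 libraries are 12 shallow and 12 deep ones. Against the 12 deep ones, which have the depth of the lipid libraries, the medians were 1.59, 1.83 and 1.77. These values use the lipid libraries that chose the genes, by a low ratio of mutant to Ku70, and are a description. For the counts of 101, 94, 94 and 108 genes no share over the 6618 genes was taken.

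**Figure D2:**
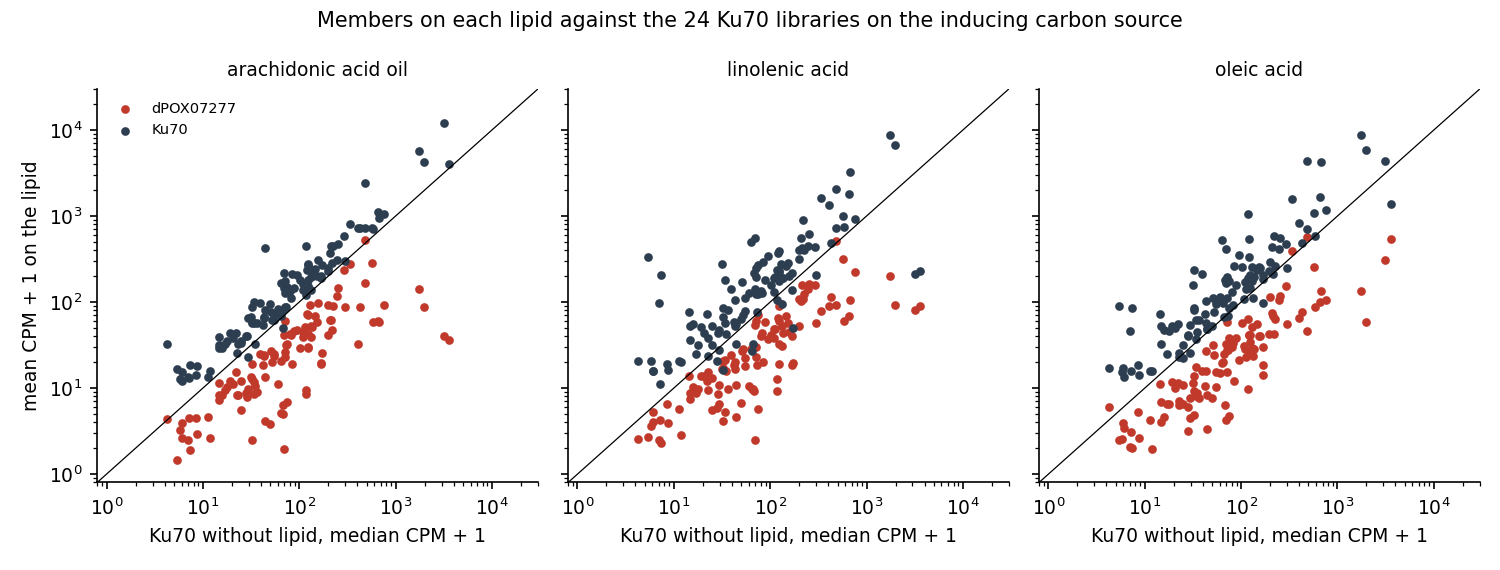
Mean level of each of the 111 genes on a lipid (vertical, CPM + 1) against the median of the 24 Ku70 libraries on the inducing carbon source without lipid (horizontal, CPM + 1), both on log axes, for dPOX07277 and Ku70. The line marks equal levels: most Ku70 points lie above it and most dPOX07277 points below it.

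Some of the gene IDs lay close together by number, and how many would do so by density alone was not tested. Of the 111 genes, 33 had another within 5 IDs, in 8 runs, of which 6 held at least 3 genes. The runs were POX03867 to POX03874 (4 genes), POX03927 to POX03935 (6), POX04866 to POX04869 (3), POX07618 to POX07622 (3), POX09318 to POX09323 (4) and POX09354 to POX09365 (9), with the pairs POX05359 and POX05360, and POX07375 and POX07376. The mirror rule, with a mutant mean at least 2.5 times that of Ku70 on all 3 lipids, gave 65 genes, of which 16 lay in 6 runs of at most 4 genes. No coordinates were used, so nearness in number is not shown to be nearness in the genome. Runs also held genes that did not enter: POX03932 had ratios of 0.834, 1.05 and 0.677 on arachidonic acid oil, linolenic acid and oleic acid, and POX09362 had 0.814, 0.865 and 1.09. Other genes that did not enter were lowered too. POX09363 had 0.0731, 0.378 and 0.0202 in the same order, but its Ku70 mean on linolenic acid was 5.97 CPM, under the minimum. POX09361 had 0.027, 0.413 and 0.105, and POX04867 had 0.172, 0.414 and 0.244. The median coding length was 1350 bases over the 111 genes and 1389 bases over the genes that met the control minimum.

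The groups without lipid gave measurements that the choice of the genes did not use. Differences there were tested with edgeR's quasi-likelihood test over all genes averaging 1 CPM or more in the fit. Calls needed a p under 0.05 after Benjamini-Hochberg adjustment over all genes tested, and a log2 fold change of 1 or more in size. The time-course libraries shared 1 fit, where 110 of the 111 genes passed the filter. POX03935 did not, and it was tested in the other fits.

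In Ku70 after 36 h, many of the 111 genes were higher on WA than on AV. Of 110 tested, 49 were called higher, against 9.56% of all genes tested, and 11 lower, against 10.1%. Of the genes that met the control minimum, 9.37% were called higher and 7.19% lower. The median log2 fold change was 1.1 over the 110 genes and -0.02 over all genes. At 12 h the balance was the other way, with 13 called higher, against 13.1%, and 44 lower, against 15.3%, and a median of -0.99 against -0.02. Of the 13 listed cellulase and xylanase genes, 9 were lower on WA at either time, and 1 was higher at 12 h and 0 at 36 h.

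The calls at the 2 times came from separate libraries. Of the 44 genes lower on WA at 12 h, 17 were called higher on WA at 36 h (38.6%), 9 lower (20.5%) and 18 neither. Among all genes tested, 9.61% of those lower on WA at 12 h were higher at 36 h and 27.8% lower. The 38.6% lies below the 44.5% of all 110 genes called higher at 36 h. These 17 were 34.7% of the 49 genes higher at 36 h. Of the 13 genes higher at 12 h, 12 were higher at 36 h as well (92.3%, and 24.5% of the 49). The difference between the 2 times was not tested.

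The run from POX09354 to POX09365 had calls in both directions. All of its 9 genes were called higher on WA at 36 h, and 6 were called lower on WA at 12 h. POX09358 stood at 7471, 20627 and 14256 CPM on WA at 36 h, against 170, 124 and 148 CPM on AV. The groups lay far apart, with a log2 fold change of 6.79 (SE 1.34, adjusted p = 0.000151, edgeR). POX09364 reached 79.1, 1175 and 658 CPM on WA at 36 h, against 7.22, 5.15 and 3.72 CPM on AV. Its log2 fold change was 7.10 (SE 1.16, adjusted p = 1.15e-05), the largest of the 110 genes, and that of POX09357 was 6.96 (SE 1.07, adjusted p = 4.51e-06). At 12 h POX09358 stood at 1292, 143 and 790 CPM on WA, against 251, 11007 and 5563 CPM on AV, and the Ku70 libraries overlapped.

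The genes POX03927 to POX03931 kept 1 direction. All 5 were called lower on WA than on AV at both times. POX03931 stood at 12.5, 6.04 and 11.7 CPM on WA at 12 h, against 1036, 872 and 977 CPM on AV, a log2 fold change of -6.45 (SE 0.73, adjusted p = 1.42e-08). At 36 h POX03931 had 7.37, 2.94 and 6.77 CPM on WA, against 73.7, 107 and 106 CPM on AV, a log2 fold change of -3.89 (SE 0.66, adjusted p = 1.78e-05). It was low in every WA library, and its AV level was lower at 36 h than at 12 h. POX03927 averaged 0.273 ± 0.006 CPM on WA at 36 h and 21.8 ± 3.7 CPM on AV (SD, n = 3 each, edgeR adjusted p = 5.07e-06), and its WA level is under 3 counts per library. POX02151 was also called lower on WA at 36 h (edgeR adjusted p = 0.0109), with 0 CPM in all 3 WA libraries, against 5.94, 0 and 0.212 CPM on AV. These groups overlapped, and without Ku70 library 26 the call was lost, at an adjusted p of 0.518.

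Other genes differed strongly between the media at 12 h. POX03064 had 1.41, 1.44 and 0.688 CPM on WA, against 125, 124 and 126 CPM on AV, a log2 fold change of -6.56 (SE 0.71, adjusted p = 5.58e-09). POX07622 had 1.12, 0.962 and 1.23 CPM on WA, against 107, 85.6 and 110 CPM on AV, a log2 fold change of -6.36 (SE 0.89, adjusted p = 5.64e-07). Both were nearly silent in all 3 WA libraries. POX02512 went the other way, with 393, 251 and 314 CPM on WA, against 9.23, 4.30 and 2.92 CPM on AV, a log2 fold change of 6.03 (SE 1.22, adjusted p = 0.000129). POX08693 had 79.1, 69.2 and 75.9 CPM on WA, against 5.69, 5.77 and 6.41 CPM on AV, a log2 fold change of 3.78 (SE 0.24, adjusted p = 1.66e-13). POX06328 had a log2 fold change of 4.01 (SE 1.5, adjusted p = 0.029), but the call was lost without Ku70 library 31, 23, 24 or 25, at an adjusted p of up to 0.09.

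**Figure D3:**
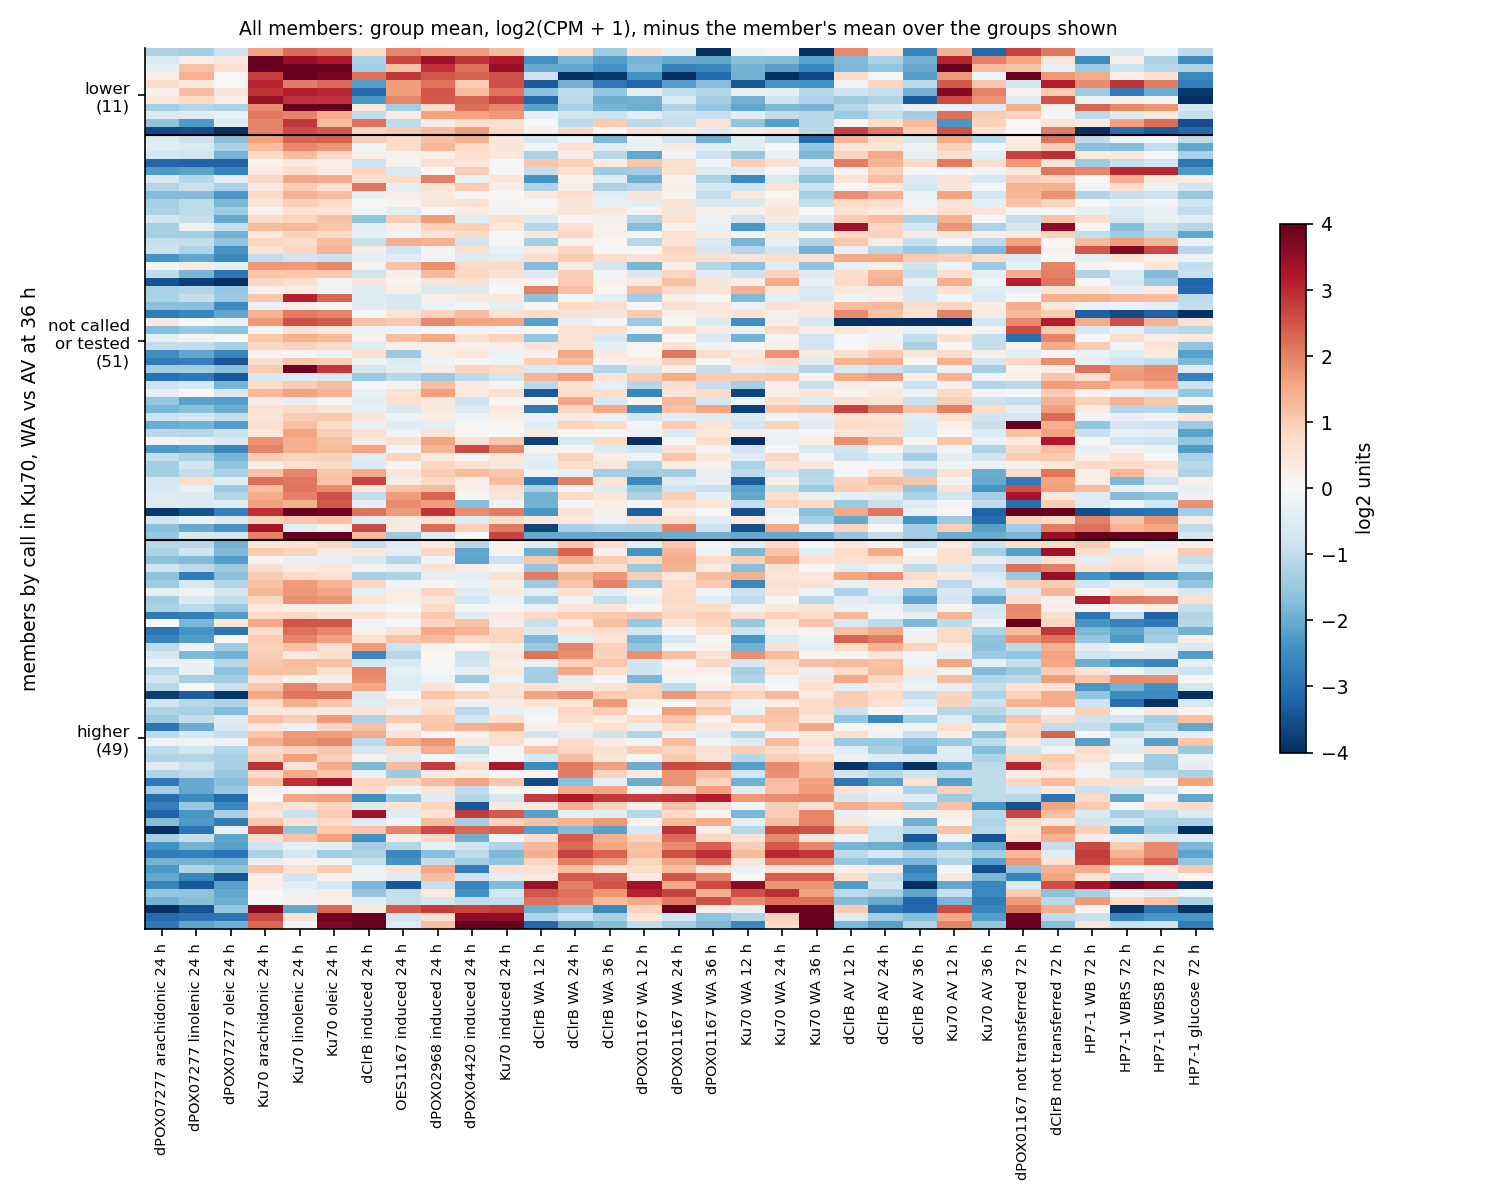
All 111 genes (rows) over 31 groups (columns, with strain, medium and hours), as the group mean of log2(CPM + 1) minus the mean of that gene over the groups shown. Rows are split by the call in Ku70 on WA against AV at 36 h: 11 lower, 51 not called or not tested and 49 higher. The 3 dPOX07277 columns are low for most rows, less so among the 11 lower ones, and the Ku70 columns for AV at 36 h and WA at 12 h are low for many rows.

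With time, many of the 111 genes fell on AV, and more rose than fell on WA. In Ku70 on AV, 2 of the 110 genes were called higher at 36 h than at 12 h, against 6.62% of all genes, and 46 lower, against 4.78%. Of the genes that met the control minimum, 3.83% were called higher and 5.05% lower. The median log2 fold change of the 110 genes was -1.2, beside 0.01 over all genes. On WA, 37 were called higher at 36 h than at 12 h, against 14%, and 6 lower, against 10.1%, with a median of 0.61 beside 0.00. Over the 5 Ku70 time-course groups, the highest mean fell on AV at 12 h for 48 of the 111 genes and on WA at 24 h for 42. These groups held the highest mean of 23% and 18.6% of the genes that met the control minimum. AV at 36 h held the highest mean of 1 gene and the lowest of 49 (44.1%, against 17.6% of the genes that met the control minimum). WA at 12 h held the lowest of 36, a share of 32.4% in both.

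POX08030 is an example. It stood at 865, 551 and 1101 CPM on AV at 36 h, against 3639, 2663 and 4745 CPM at 12 h, a log2 fold change of -2.10. On WA it had 3694, 2472 and 4814 CPM at 12 h, 5509, 3228 and 6218 CPM at 24 h, and 2641, 1844 and 3459 CPM at 36 h. Its lowest time-course levels in Ku70 were thus those on AV at 36 h. On WA, POX09364 averaged 2.02 ± 0.99 CPM at 12 h, 27.1 ± 15.1 CPM at 24 h and 637.4 ± 548.4 CPM at 36 h (SD, n = 3 each), with a log2 fold change of 8.42 at 36 h over 12 h (SE 1.24, adjusted p = 1.58e-06). POX09357 and POX07622 were also called higher at 36 h on WA, by 5.84 and 5.76 on the log2 scale (SE 1.02 and 0.87, adjusted p = 2.10e-05 and 2.41e-06).

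POX02151 was lower at 36 h on both media. On WA it had 41.1, 8.16 and 23.2 CPM at 12 h, 33.2, 15.5 and 24.0 CPM at 24 h, and 0 CPM in all 3 Ku70 libraries at 36 h. With 3 counts per library as the floor, it was at least 59.0-fold lower on WA at 36 h than at 12 h (edgeR adjusted p = 8.12e-05). On AV it averaged 2.05 ± 3.37 CPM at 36 h and 71.2 ± 16 CPM at 12 h (SD, n = 3 each, log2 fold change -5.12, SE 1.27, adjusted p = 0.00418, and 0.0911 with these 2 groups fitted alone). POX01926 was one of the 2 genes called higher on AV at 36 h, with 63.8, 35.8 and 42.7 CPM, against 4.81, 3.02 and 4.37 CPM at 12 h, a log2 fold change of 3.58 (SE 0.38, adjusted p = 2.80e-08). The other was POX03782 (1.2, SE 0.38, adjusted p = 0.0219), whose call was lost without Ku70 library 23, 25 or 27, at an adjusted p of up to 0.0992.

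Levels of some genes also moved with the set in which a library was quantified. Within the time course, each group has 1 library in each of 3 sets that differ in how FPKM relates to counts, and 27 of the 111 genes had set means over 2-fold apart (24.3%, against 18.9% of the genes that met the control minimum). POX06231 averaged 138.4, 1657 and 203.9 CPM in the sets F, S and T, and POX08890 averaged 52.8, 39.6 and 4.88 CPM. With the set as a replicate block, 67 genes were called for WA over AV at 12 h and 66 at 36 h, against 57 and 60 without it. For 36 h over 12 h, 61 were called on AV and 54 on WA, against 48 and 43.

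In dClrB on AV, most of the 111 genes were not called against Ku70, but the shares called were above those of all genes. Of the 17 called at 36 h, 8 lay in 2 runs of numbers. At 12 h on AV, 3 of the 110 genes (2.73%) were called higher in dClrB than in Ku70, against 1.61% of all genes. Lower calls were 7 (6.36%), against 1.36%. At 36 h, 9 (8.18%) were called higher, against 4.19%, and 8 (7.27%) lower, against 3.21%. The medians were 0.01 at 12 h and 0.32 at 36 h, beside 0.03 and 0.00 over all genes. Of the 13 listed cellulase and xylanase genes, 11 were lower in dClrB at 12 h and 10 at 36 h. These comparisons share the Ku70 AV libraries with those between the media.

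POX03927 to POX03931 were lower in dClrB on AV at both times, 5 of 5. POX03931 stood at 10.4, 10.9 and 10.5 CPM in dClrB at 12 h, against 1036, 872 and 977 CPM in Ku70, a log2 fold change of -6.48 (SE 0.73, adjusted p = 2.51e-07). POX03927 averaged 0.652 ± 0.339 CPM in dClrB and 45.4 ± 11.9 CPM in Ku70 at 12 h (SD, n = 3 each), a log2 fold change of -6.10 (SE 0.92, adjusted p = 3.93e-05). At 36 h POX03930 stood at 4.82, 4.76 and 6.91 CPM in dClrB, against 201, 254 and 229 CPM in Ku70, a log2 fold change of -5.30 (SE 0.55, adjusted p = 9.73e-09). The dClrB libraries on AV were thus as low as the WA libraries of Ku70 for POX03931. POX03064 was also lower in dClrB at both times, and POX09364 was lower at 12 h.

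POX05580 stood at 0 CPM in all 3 dClrB libraries on AV at 36 h, against 21.2, 11.9 and 15.4 CPM in Ku70. With 3 counts per library as the floor it was at least 38.1-fold lower in dClrB (edgeR adjusted p = 4.49e-05). The run POX04866 to POX04869 went the other way. POX04866 reached 153, 262 and 213 CPM in dClrB at 36 h, against 22.1, 23.5 and 22.9 CPM in Ku70, a log2 fold change of 3.27 (SE 0.65, adjusted p = 0.000483). POX04869 and POX04868 were higher by 2.83 and 2.36 on the log2 scale (SE 0.52 and 0.42, adjusted p = 0.00016 and 0.000133). At 12 h POX01926 was higher in dClrB, with 19.9, 31.9 and 23.5 CPM, against 4.81, 3.02 and 4.37 CPM in Ku70, a log2 fold change of 2.67 (SE 0.37, adjusted p = 9.62e-06, and 0.0527 with these 2 groups fitted alone). POX00693 was higher at both times.

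**Figure D4:**
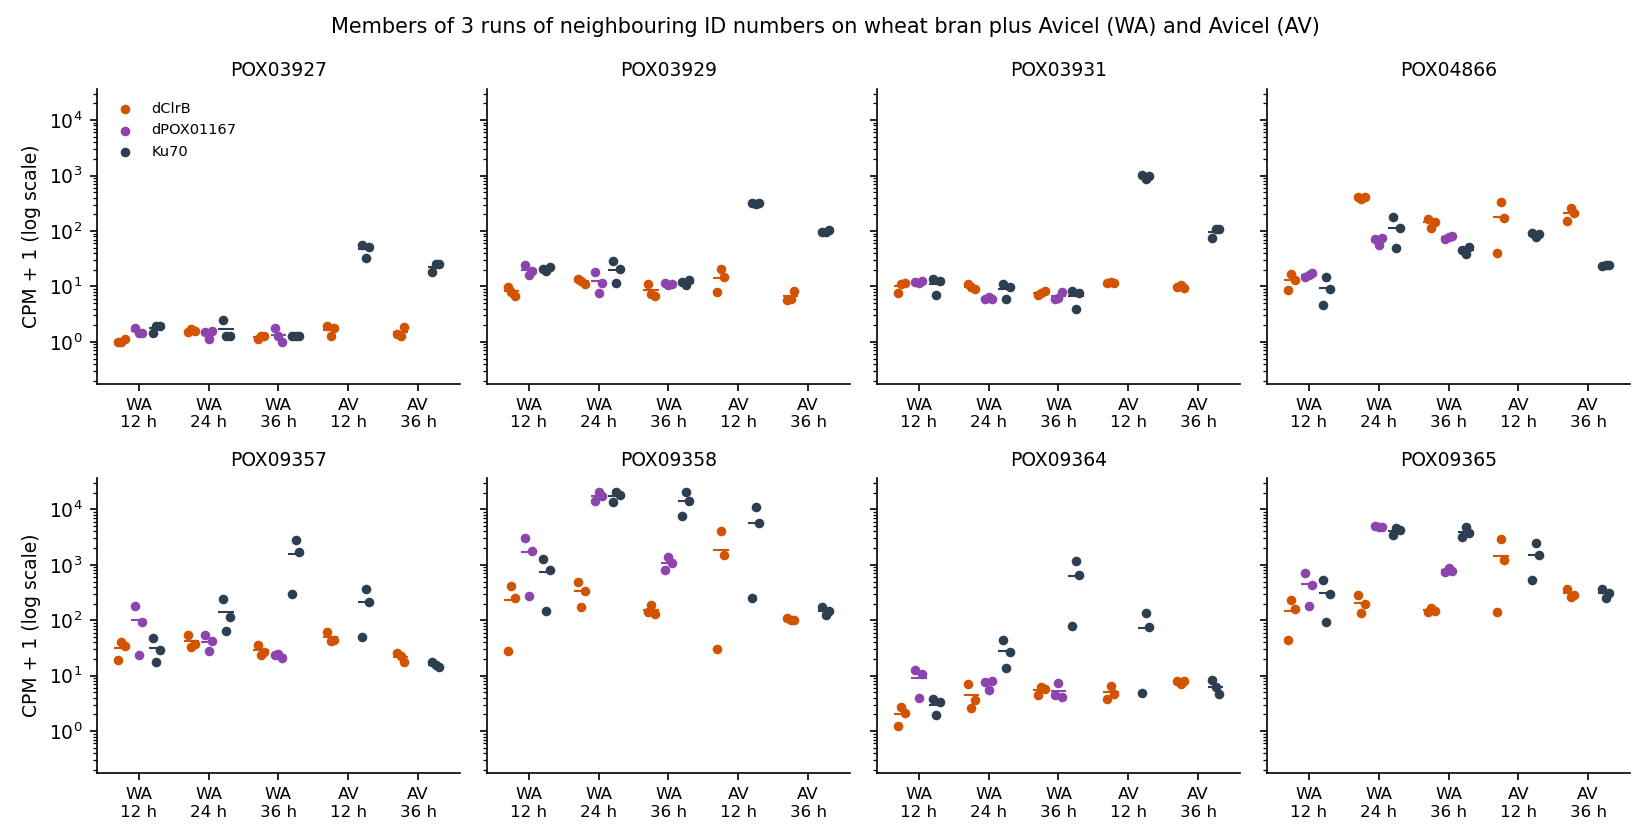
Levels of 8 genes from 3 runs of ID numbers, as CPM + 1 on a log axis, on WA and AV at the hours shown, with 1 point per library (3 per group), the mean as a line, and dClrB and dPOX01167 left of Ku70 (dPOX01167 on WA only). POX03927, POX03929 and POX03931 are high in Ku70 on AV alone, and POX09357 and POX09364 are high in Ku70 on WA at 36 h. In Ku70 on AV at 12 h, POX09357 and POX09364 were also called higher than on WA at 12 h and than on AV at 36 h.

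On WA, 2 of the 110 genes were called in dClrB at 12 h, 4 at 24 h and 11 at 36 h. Without the 6 libraries labelled dPOX01167 on AV in the fit, the counts were 7, 9 and 14. At 12 h, 1 was called higher, against 0.209% of all genes, and 1 lower, against 0.209%. The 2 genes at 12 h were POX01926, higher by 1.67, and POX03782, with a log2 fold change of -1.77 (SE 0.36 and 0.38, adjusted p = 0.0176 and 0.02). At 24 h, 1 was called higher, against 0.479%, and 3 lower, against 0.246%. At 36 h, 4 were called higher, against 1.45%, and 7 lower, against 1.19%. The counts at 12 and 24 h move with single libraries: leaving out 1 library at a time gave 0 to 2 calls at 12 h, with 0 without Ku70 library 31 or dClrB library F or T and 1 without Ku70 library 29 or 30. At 24 h it gave 2 or 3 calls, with 2 without dClrB library S or T.

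Of the 7 genes lower on WA at 36 h, 5 lay in the run POX09354 to POX09365. POX09364 stood at 3.47, 5.21 and 4.73 CPM in dClrB at 36 h, against 79.1, 1175 and 658 CPM in Ku70, a log2 fold change of -7.35 (SE 1.17, adjusted p = 0.000121). POX09358 stood at 137, 191 and 130 CPM in dClrB at 36 h, against 7471, 20627 and 14256 CPM in Ku70, a log2 fold change of -6.72 (SE 1.34, adjusted p = 0.00172). No dClrB library reached the lowest Ku70 library for either gene. POX09357, POX09365 and POX09359 were called lower as well, the first with a log2 fold change of -6.04 (SE 1.03, adjusted p = 0.000253). At 24 h POX09365 stood at 282, 134 and 192 CPM in dClrB, against 3475, 4679 and 4186 CPM in Ku70, a log2 fold change of -4.38 (SE 0.80, adjusted p = 0.00197). POX09358 was called lower at 24 h too, at an adjusted p of 0.0147, and of up to 0.106 without dClrB library F, S or T.

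Some genes were higher in dClrB on WA. POX01926 stood at 40.7, 70.0 and 45.5 CPM in dClrB at 36 h, against 9.65, 10.5 and 12.0 CPM in Ku70, a log2 fold change of 2.09 (SE 0.36, adjusted p = 0.000299). POX02151 stood at 9.94, 3.12 and 13.5 CPM in dClrB at 36 h, against 0 in all 3 Ku70 libraries, and was at least 21.6-fold higher with 3 counts per library as the floor (edgeR adjusted p = 0.00555, and 0.0642 with these 2 groups fitted alone). POX09323 was called higher at 24 and 36 h. At 24 h its call was lost without any 1 of dClrB S or T or of the 3 Ku70 libraries, at an adjusted p of up to 0.134, and at 36 h with the groups fitted alone, at 0.135.

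The effect of losing ClrB differed between WA and AV at 36 h for 17 of the 110 genes by a test of the difference itself. The difference was positive for 8, against 3.93% of all genes, and negative for 9, against 4.04%. The 5 genes POX03927 to POX03931 were among the positive ones, being lower in dClrB on AV and not called on WA. In Ku70 on WA at 36 h they stood at no more than 29.8 CPM, and POX03927 stood at 0.268, 0.28 and 0.271 CPM, under the 0.41 CPM that 3 counts are worth on average there, so that a decrease of POX03927 on WA was not detectable at this depth. POX09357, POX09358, POX09359, POX09364 and POX09365 were among the negative ones, being lower in dClrB on WA and not called on AV. In Ku70 at 36 h all 5 were called lower on AV than on WA, so a decrease on AV had less room to show. On AV at 12 h POX09364 was called lower in dClrB, alone among these 5. POX03782 was called in opposite directions. On WA at 36 h it stood at 325, 326 and 309 CPM in dClrB, against 1031, 1626 and 1274 CPM in Ku70. On AV it stood at 592, 766 and 537 CPM in dClrB, against 186, 257 and 182 CPM in Ku70. The libraries of the strains overlapped on neither medium, and the difference of the effects was -3.90 on the log2 scale (SE 0.54, adjusted p = 5.46e-06).

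In dPOX01167 on WA, 3 of the 110 genes were called over the 3 times. Without the 6 libraries labelled dPOX01167 on AV in the fit, 3 were called at 12 h, 2 at 24 h and 5 at 36 h. At 12 h, 0 were called higher, against 0.0369% of all genes, and 0 lower, against 0.172%. At 24 h, 0 were called higher, against 0.0369%, and 0 lower, against 0.0369%. Beside these zeros from edgeR, 15 genes at 12 h and 12 at 24 h had an unadjusted p under 0.05. DESeq2 called 1 and 2, and edgeR with the quantification set as a replicate block called 1 and 1. Without Ku70 library 30, 2 were called at 12 h. At 36 h, 1 was called higher, against 0.221%, and 2 lower, against 0.135%.

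The 2 lower genes at 36 h were POX09364 and POX09357. POX09364 stood at 3.43, 6.37 and 3.09 CPM in dPOX01167, against 79.1, 1175 and 658 CPM in Ku70, a log2 fold change of -7.35 (SE 1.17, adjusted p = 0.000562, and 0.116 with these 2 groups fitted alone). POX09357 stood at 23.1, 24.0 and 19.7 CPM in dPOX01167, against 298, 2794 and 1667 CPM in Ku70, a log2 fold change of -6.30 (SE 1.04, adjusted p = 0.000835, and 0.101 fitted alone). Both mutants were compared with the same 3 Ku70 libraries. POX09358, with 798, 1404 and 1083 CPM in dPOX01167, against 7471, 20627 and 14256 CPM in Ku70, was not called. POX01926 was the higher gene (1.66, SE 0.36, adjusted p = 0.0166), and its call was lost without dPOX01167 library F or S or any 1 of the 3 Ku70 libraries, at an adjusted p of up to 0.114.

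On the inducing carbon source at 24 h, dClrB again had low levels of the genes POX03927 to POX03931. Of the 111 genes, 4 were called higher in dClrB than in the 24 Ku70 libraries, against 8.68% of all genes, and 14 lower, against 3.32%. The 24 entered as separate replicates, but for some genes they stood in clusters by number. POX00086 had 29.5, 32.1 and 37.3 CPM in Ku70 libraries 8, 9 and 10, and 378, 429 and 411 CPM in 11, 12 and 13. The p-values on this medium may therefore rest on fewer independent cultures than 24. POX03929 stood at 0.820, 4.44 and 0.278 CPM in dClrB, against 0.662 to 205.9 CPM with a median of 121.2 CPM in Ku70, a log2 fold change of -6.06 (SE 1.31, adjusted p = 0.00135). POX03927 stood at 1.09, 2.07 and 0.833 CPM in dClrB, against 0 to 94.3 CPM with a median of 49.1 CPM in Ku70, a log2 fold change of -5.33 (SE 1.28, adjusted p = 0.00355). The dClrB libraries lay at or near the low end of the Ku70 range, 1 of them below it for POX03929. With Ku70 libraries of the same kind of table alone, the adjusted p of POX03927 was 0.0544. POX05580 was also lower, but its call was lost without any 1 dClrB library, at an adjusted p of up to 0.19.

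The higher genes in dClrB were POX06470, POX02405, POX04868 and POX04869, and the calls of POX06470 and POX04868 were lost without dClrB library F. POX02405 stood at 590, 2494 and 1262 CPM in dClrB, against 56.4 to 1247 CPM with a median of 291.8 CPM in Ku70, a log2 fold change of 1.95 (SE 0.45, adjusted p = 0.00232, and 0.0776 without dClrB library S). The dClrB libraries F and S differed over 2-fold at 39.1% of genes averaging 20 CPM or more. Without library F, 8 genes were called, against 18 with it. All comparisons on the inducing carbon source share the 24 Ku70 libraries.

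For the other strains on this medium, the number of genes called depended on which Ku70 libraries they were set against. Against the 24 Ku70 libraries few were called, and against Ku70 1F, 1S and 1T alone, an alternative chosen after seeing the data, 48 were called in OES1167, 32 in dPOX02968 and 47 in dPOX04420. The counts that follow are against all 24. In OES1167, 1 was called higher, against 0.176% of all genes, and 0 lower, against 0.0352%. In dPOX02968, 6 were called higher, against 0.972%, and 0 lower, against 0.539%. In dPOX04420, 0 were called higher, against 0.855%, and 4 lower, against 0.761%. Over the genes that met the control minimum the shares for dPOX04420 were 0.348% and 0.876%. Beside the zeros of edgeR, 20, 19 and 23 of the 111 genes had an unadjusted p under 0.05 in OES1167, dPOX02968 and dPOX04420, and DESeq2 called 2 higher and 5 lower, 8 higher and 0 lower, and 0 higher and 12 lower. Leaving out any 1 library of the strain gave 0 calls in OES1167 and dPOX04420 and 0 or 1 in dPOX02968, where 1 was left without library T.

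POX06231 was the gene called in OES1167, with 2056, 3355 and 3190 CPM, against 288.1 to 1701 CPM with a median of 479.8 CPM in Ku70, a log2 fold change of 2.09 (SE 0.44, adjusted p = 0.0279). In dPOX02968 it stood at 2461, 2709 and 2262 CPM against the same Ku70 libraries, a log2 fold change of 1.86 (SE 0.44, adjusted p = 0.0207). All 6 libraries of the mutants lay above all 24 of Ku70, and without any 1 of them the adjusted p of POX06231 reached 0.502 in OES1167 and 0.162 in dPOX02968. POX00718 stood at 184, 183 and 167 CPM in dPOX02968, against 24.0 to 129.9 CPM with a median of 38.6 CPM in Ku70, a log2 fold change of 1.86 (SE 0.36, adjusted p = 0.00482). Its call was lost without library F or S, at an adjusted p of up to 0.0599.

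In dPOX04420 the lower genes were POX09355, POX09354, POX03742 and POX06736. POX09355 stood at 48.5, 70.0 and 58.3 CPM in dPOX04420, against 106.3 to 1741 CPM with a median of 765.9 CPM in Ku70, a log2 fold change of -3.95 (SE 0.96, adjusted p = 0.0259). POX03742 stood at 55.6, 46.4 and 46.3 CPM in dPOX04420, against 64.7 to 417.2 CPM with a median of 222.0 CPM in Ku70, a log2 fold change of -2.42 (SE 0.51, adjusted p = 0.00969). The mutant libraries of both genes lay below all 24 of Ku70. Both calls were lost without any 1 of the 3 dPOX04420 libraries, at an adjusted p of up to 0.165 for POX09355 and 0.123 for POX03742. With Ku70 libraries of the same kind of table alone, 16 of the 111 genes were called.

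In the wild type HP7-1, the 3 wheat bran libraries together were compared with glucose, so that their spread includes 3 media. Of the 111 genes, 34 were called higher, against 11.5% of all genes, and 14 lower, against 10.5%, with a median log2 fold change of 0.59 beside 0.13. Over the genes that met the control minimum the shares were 10.6% higher and 12.4% lower. POX02512 stood at 272, 419 and 343 CPM on wheat bran, wheat bran plus rice straw and wheat bran plus bagasse, against 0, 0 and 1.11 CPM on glucose, a log2 fold change of 8.58 (SE 0.57, adjusted p = 1.27e-05). POX01926 had 32.6, 78.0 and 118 CPM on these media, against 0, 2.51 and 1.11 CPM on glucose, a log2 fold change of 5.50 (SE 0.80, adjusted p = 0.000801). POX03064 had 85.0, 169 and 97.0 CPM on them, against 0, 5.02 and 2.21 CPM on glucose, a log2 fold change of 5.20 (SE 0.60, adjusted p = 0.000214). These 3 genes were nearly silent on glucose. The glucose libraries hold only 365937, 398245 and 902988 counts, so these glucose levels are few counts or none. The 3 fold changes are therefore no measure of size.

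POX06231 was lower, with 537.0, 679.3 and 488.8 CPM on the wheat bran media, against 2716, 3249 and 2191 CPM on glucose, a log2 fold change of -2.62 (SE 0.38, adjusted p = 0.000785). POX09166 was lower too, with a log2 fold change of -2.58 (SE 0.31, adjusted p = 0.000259). POX09320 was called lower (-2.90, SE 0.85, adjusted p = 0.0288), a call lost without glucose library F or T or the bagasse library, at an adjusted p of up to 0.192. POX08890 had 1.42, 2.57 and 2.66 CPM on the wheat bran media, against 8.20, 15.1 and 6.64 CPM on glucose. In libraries this shallow these levels are few counts. Its call as lower here was its single call among the comparisons without lipid. Of the 13 listed cellulase and xylanase genes, 12 were higher on the wheat bran media. Of the 49 genes higher on WA in Ku70 at 36 h, 10 were higher on wheat bran media in HP7-1 (20.4% of the 49, and 29.4% of the 34) and 10 were lower there. That share was below the 30.6% of all 111 genes called higher in HP7-1. Of the 11 genes lower on WA, 5 were higher in HP7-1 and 0 lower.

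Without transfer, dPOX01167 was compared with dClrB, since both grew from spores on Avicel for 72 h. The growth notes of these dPOX01167 libraries name spores of HP7-1. Of the 111 genes, 17 were called higher in dPOX01167, against 18.3% of all genes, and 35 lower, against 17.7%, with a median log2 fold change of -0.61 beside 0.07. POX03742 stood at 58.7, 14.9 and 64.7 CPM in dPOX01167, against 2327, 2140 and 2325 CPM in dClrB, a log2 fold change of -5.83 (SE 0.56, adjusted p = 0.00047). POX07376 stood at 61.9, 4.80 and 73.0 CPM in dPOX01167, against 1738, 1449 and 1329 CPM in dClrB, a log2 fold change of -5.25 (SE 0.89, adjusted p = 0.00376). POX03935 stood at 0, 0.480 and 0 CPM in dPOX01167, against 70.3, 21.1 and 41 CPM in dClrB (edgeR adjusted p = 0.000938). The groups of these 3 genes lay far apart.

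The dPOX01167 library S stood apart from F and T, with F and S over 2-fold apart at 33.8% of genes averaging 20 CPM or more. POX09364 stood at 107, 1676 and 109 CPM in dPOX01167, against 5.13, 2.72 and 6.04 CPM in dClrB, a log2 fold change of 7.05 (SE 1.5, adjusted p = 0.00971). All 3 of its dPOX01167 libraries lay above all dClrB libraries. POX09357 stood at 216, 5507 and 217 CPM in dPOX01167, against 25.6, 35.1 and 42.2 CPM in dClrB, a log2 fold change of 5.85 (SE 1.57, adjusted p = 0.023), a call lost without dClrB library F, S or T. POX09172 was also called higher, with a call lost in the same way at an adjusted p of up to 0.15.

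**Figure D5:**
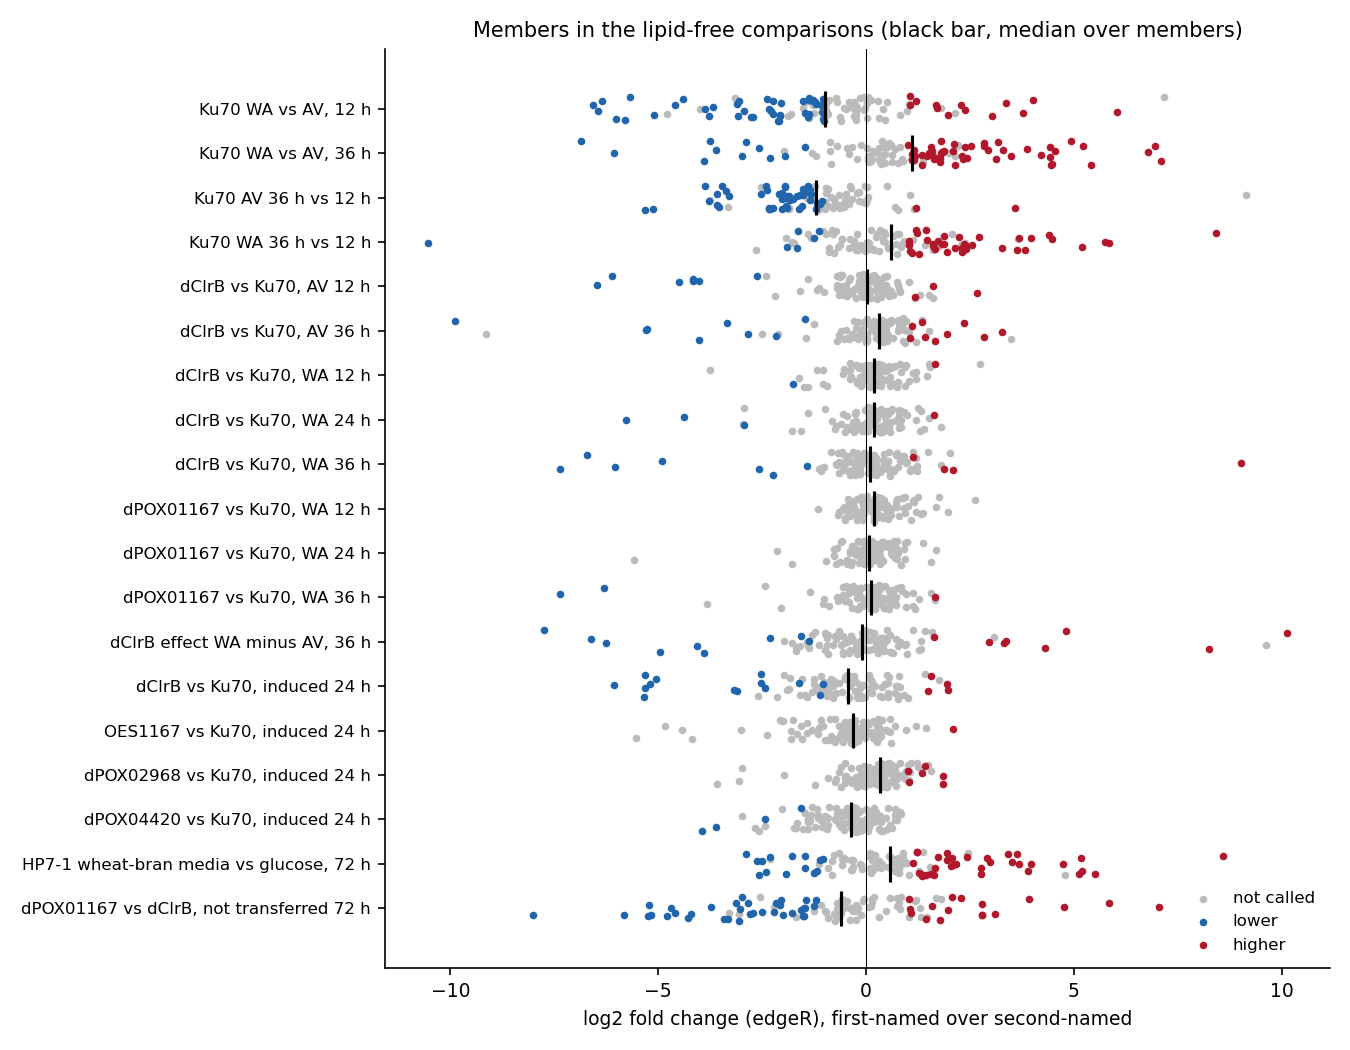
Log2 fold change from edgeR, first-named over second-named group, of each of the 111 genes (1 point per gene, those that passed the filter) in the 19 comparisons without lipid, with called genes in colour and the median as a black bar. The medians are lowest for Ku70 on AV at 36 h over 12 h (-1.2) and highest for Ku70 on WA over AV at 36 h (1.1).

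Over the 19 comparisons, 101 of the 111 genes were called at least once, as were 69.3% of the 6618 genes that met the control minimum, and 10 in none. The 10 were POX00352, POX00777, POX02006, POX02547, POX04829, POX05148, POX06132, POX06519, POX07134 and POX07727. A further 50 genes were called in 1 to 3 comparisons, beside 54.9% of the 6618. Another 33 were called in 4 to 6, beside 11.7%, and 18 in 7 or more, beside 2.61%, with at most 9, for POX01926, POX03782, POX09364 and POX09365. POX08030 was called in 3 comparisons and POX05360 in 4, and POX08890 in 1.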

How the data were processed

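The samples were 114 RNA-seq libraries of P. oxalicum mycelium in 33 groups taken from the labels. Each deposited table gives RSEM expected counts, TPM and FPKM per gene. Per the submitters' processing notes, the tools were RSEM 1.2.12, Bowtie2 2.1.0, DESeq2 and BWA 0.7.10-r789, with no roles stated. The authors' expected counts, unscaled as deposited, were divided by the library total to give CPM, and were rounded to whole numbers for edgeR, a change of 0.000566% or less of each library total. TPM values as deposited were not used. The authors' FPKM values per count part the time-course libraries into 3 quantification sets, with 1 library of each group in each.

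The 111 genes, the lists and the tests were chosen with earlier results of these data known. Means are over the libraries of a group. Differences without lipid were tested, two-sided, with edgeR 4.0.16 (quasi-likelihood F test, TMM scaling) in R 4.3.3, over genes with a mean of 1 CPM or more in the fit (8140 genes in the time course, 8474 to 8549 elsewhere), with Benjamini-Hochberg adjustment over all of them. The time course (45 libraries) was 1 fit, and each induced strain was fitted with the 24 Ku70 libraries. HP7-1 and the untransferred cultures were fitted alone. On simulated counts with 200 genes changed 4-fold, the fit recovered 196 of 200 for dClrB on AV at 36 h (8140 genes). For dPOX02968 it recovered 200 of 200 (8541 genes). The simulated libraries were independent, with 1 fixed dispersion (spread between libraries) for all genes and without the sets and clusters of the real libraries. The simulation therefore checks the fit and does not measure how many true changes were found in these data. Totals ran from 365937 to 14731797 counts per library.

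Genes named are the 12 with the lowest highest ratio, the 6 with the highest Ku70 mean on lipids, those next to the threshold, the runs of IDs and up to 3 called genes per direction and comparison. Further genes listed beside a count were chosen after their values were seen. Alternatives were DESeq2 1.42.0, no filter, the compared groups alone, leaving out the 6 libraries labelled dPOX01167 on AV, other Ku70 libraries, a replicate block and leaving out each library in turn. In the time course, libraries of 1 quantification set deviated together (correlations from 0.774), a pairing found from the values. It matched the F, S and T letters of all 33 lettered libraries, while the Ku70 libraries there carry no such letter. The main fit left this pairing out. No pair of libraries in a group agreed within sampling noise. One Ku70 library on WA at 12 h is labelled 13 h.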

Additional observations from a re-analysis of the deposited data

Results flagged for a closer look

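The effect of losing ClrB at 36 h differed between WA and AV for 17 of the 110 genes tested, by edgeR's test of the difference itself (8 positive, 9 negative). POX05580 had a difference of 10.12 on the log2 scale (SE 1.89, adjusted p = 0.000404), with dClrB over Ku70 at 0.24 on WA and at 0 CPM in all dClrB libraries on AV. POX02151 had a difference of 8.26 (SE 2.38, adjusted p = 0.0218), which was lost without Ku70 library 35, 36, 37 or 26, and all Ku70 libraries on WA were at 0 CPM. Both fitted values depend on libraries at 0 and are no measure of size. POX03927 had a difference of 4.81 (SE 1.25, adjusted p = 0.00924), from -0.46 on WA and -5.27 on AV. The first of these is a value at the floor, since Ku70 on WA averaged 0.273 CPM, under 3 counts per library. POX09364 had a difference of -7.75 (SE 1.43, adjusted p = 0.000295), from -7.35 on WA and 0.40 on AV. POX09357 had a difference of -6.63 (SE 1.28, adjusted p = 0.000528), from -6.04 on WA and 0.59 on AV. POX09358 had a difference of -6.26 (SE 1.60, adjusted p = 0.0078), from -6.72 on WA and -0.46 on AV. In Ku70 at 36 h POX09364, POX09357 and POX09358 were called lower on AV than on WA, so a decrease on AV had less room to show.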

How the results depend on the processing

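Over 198 alternatives to 19 counts of called genes, 156 stayed within 1.5 times the count given, and 0 of 858 alternatives for the named genes reversed a direction, while 104 lost the call. The cause of the changes below was not tested. With the compared groups fitted alone, dClrB on WA at 12 h had 0 calls, against 2, and dPOX01167 on WA at 36 h had 0, against 3. Without the 6 libraries labelled dPOX01167 on AV, dClrB had 7 calls on WA at 12 h and 9 at 24 h, and dPOX01167 had 3, 2 and 5 calls on WA at 12, 24 and 36 h. DESeq2 gave 7 calls for dClrB on WA at 24 h, against 4. For dPOX01167 on WA it gave 1, 2 and 5 at 12, 24 and 36 h. It gave 7 for OES1167, against 1, and 12 for dPOX04420, against 4. Under DESeq2 the share of higher calls was 66.7% for dClrB on WA at 12 h (50%) and 42.9% at 24 h (25%). It was 20% for dPOX01167 at 36 h (33.3%) and 28.6% for OES1167 (100%). These shares rest on few calls. DESeq2 called 2 higher and 1 lower for dClrB at 12 h, and 3 higher and 4 lower at 24 h. It called 1 higher and 4 lower for dPOX01167 at 36 h, and 2 higher and 5 lower for OES1167.

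With the quantification set as a replicate block, dPOX01167 on WA had 1 call at 12 h and 1 at 24 h. On the inducing carbon source same-lettered libraries did not deviate together (correlations of -0.15 to 0.12), so the letters were not taken as pairs. The replicate block with Ku70 1F, 1S and 1T gave 35 calls for dClrB, 49 for OES1167, 32 for dPOX02968 and 48 for dPOX04420, and the same 3 Ku70 libraries without the block, tried after seeing the data, gave 32, 48, 32 and 47. Ku70 libraries of the same kind of table gave 16 for dPOX04420. Leaving out 1 library gave 0 to 2 calls for dClrB and 0 to 2 for dPOX01167 on WA at 12 h, 2 to 3 for dClrB at 24 h, 8 to 18 for dClrB on the inducing carbon source, 0 for OES1167 and dPOX04420, and 0 to 1 for dPOX02968. A ratio of at most 0.3 gave 59 genes and one of at most 0.5 gave 173.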
